A study of Mus musculus with 18 samples.

Results

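The genes described here supply acetyl-CoA to the cytosol and build fatty acids from it. They are 10 genes chosen by name: *Slc25a1*, *Acly*, *Acss2* and *Aacs* on the supply side, *Acaca*, *Acacb* and their partners *Mid1ip1* and *Thrsp* at the carboxylation step, *Fasn* for chain synthesis, and *Me1* for the reducing power. A probe set belonged to the group when its single gene symbol was one of these names. This gave 13 of the 35556 probe sets on the array, and 10 of the 19938 genes that have a probe set with 1 symbol. All 13 probe sets passed the filter on low values in both fits, the lowest of them *Thrsp*, which stood as low as the 36.5th percentile of an array.

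Fatty acid synthesis starts from citrate, which leaves the mitochondrion through the carrier SLC25A1 and is split by ACLY into acetyl-CoA and oxaloacetate, while ACSS2 makes acetyl-CoA from acetate and AACS activates acetoacetate. ACACA and ACACB carboxylate acetyl-CoA to malonyl-CoA, which FASN joins into palmitate with NADPH, part of it from the malic enzyme ME1. The SREBP transcription factors induce much of this pathway once SCAP has carried them out of the endoplasmic reticulum, the INSIG proteins hold SCAP back there, and in the lung the type II epithelial cell uses the fatty acids for the phospholipids of surfactant.

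The study asked how loss of SCAP, or of both INSIG proteins, in the respiratory epithelium alters the lung around birth. RNA from whole lung was measured on 18 Affymetrix Mouse Gene 1.0 ST arrays, in 6 groups of 3 lungs each. In the *Scap* line, deleted lungs (called KO) carried *Scap* flox/flox with the *SP-C-rtTA* and *(tetO)7CMV-Cre* transgenes, and control lungs came from *Scap* flox/flox littermates without one of these transgenes. Both groups were sampled at E18.5, by Cesarean delivery, and at PN1, the day of birth. In the *Insig* line, sampled at E17.5, deleted lungs carried the same transgenes with *Insig1* flox/flox and *Insig2*-/-, and their controls, which also lack *Insig2*, missed one transgene. All dams ate doxycycline chow for a period of early to mid gestation, so that Cre, driven through the SP-C promoter, removed the floxed gene in the respiratory epithelium. The *Scap* colony was of mixed strain. The study states that deletion in the epithelium was incomplete. In whole-lung RNA, fewer cells of a type and less RNA per cell cannot be told apart.

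*Scap* itself read 9.71 to 9.75 (log2) in the E18.5 controls and 9.22 to 9.47 in the deleted lungs of that age, 9.76 to 9.92 in the PN1 controls and 9.53 to 9.65 in the deleted lungs. *Insig1* read 9.29 to 10.002 in the *Insig* controls and 8.21 to 8.58 in the deleted lungs. Neither targeted gene overlapped between its deleted and control lungs in these 3 comparisons. The arrays KO17 and KO18, both PN1 *Scap*-deleted, stood apart: they correlated with each other at 0.99 over all probe sets but with the other arrays at 0.93 to 0.96, while the other 16 correlated among themselves at 0.973 to 0.9975. Their spread over probe sets was narrower (SD 2.08 and 2.08 against 2.23 to 2.30) and their medians higher (7.67 and 7.70 against 7.42 to 7.50). At PN1 the third deleted lung, KO16, resembled the other arrays, so the PN1 differences of the members are given array by array or with KO16 as the one deleted lung. In that setting the spread is taken from the other groups. The *Insig* arrays formed 2 sets that crossed the genotypes, C19, C20 and KO22 (r 0.996 to 0.997) and C21, KO23 and KO24 (0.993 to 0.996), with 0.984 to 0.991 between the sets.

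The letters just before the transcription start of the genes are shown for 4 members chosen for how they differed. *Fasn* lay lower in deleted lungs at both ages, as did other members. *Slc25a1* is the one member with a match to the core of a sterol regulatory element. *Mid1ip1* had the largest difference at PN1, and *Thrsp* had the smallest at E18.5. RefSeq promoter windows of build GRCm38.p6 were found for all 10 members. The 250 bases before the start are chr11:120824548-120824797 (minus strand) for *Fasn*, chr16:17928220-17928469 (minus strand) for *Slc25a1*, chrX:10717115-10717364 (plus strand) for *Mid1ip1* and chr7:97417551-97417800 (minus strand) for *Thrsp*. Each runs 5′ to 3′ on the strand of its gene, and capitals mark matches on either strand to CACNCCAC, the core of a sterol regulatory element bound by SREBP, to CCAAT, the box bound by NF-Y, and to the E-box CACGTG.
Fasn: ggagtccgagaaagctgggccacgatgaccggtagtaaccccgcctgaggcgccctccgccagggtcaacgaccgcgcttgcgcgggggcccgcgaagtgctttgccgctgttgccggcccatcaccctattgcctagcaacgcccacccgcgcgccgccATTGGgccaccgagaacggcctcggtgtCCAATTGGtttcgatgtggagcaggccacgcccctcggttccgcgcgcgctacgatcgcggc
Slc25a1: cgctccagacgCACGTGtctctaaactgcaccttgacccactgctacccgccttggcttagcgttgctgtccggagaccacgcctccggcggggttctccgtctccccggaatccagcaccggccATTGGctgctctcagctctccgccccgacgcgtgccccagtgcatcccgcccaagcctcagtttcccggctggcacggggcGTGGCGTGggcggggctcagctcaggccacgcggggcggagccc
Mid1ip1: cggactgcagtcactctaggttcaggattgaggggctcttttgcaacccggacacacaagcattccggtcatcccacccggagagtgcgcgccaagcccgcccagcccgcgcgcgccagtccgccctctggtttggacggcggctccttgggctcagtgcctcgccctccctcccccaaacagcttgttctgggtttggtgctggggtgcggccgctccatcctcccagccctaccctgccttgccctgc
Thrsp: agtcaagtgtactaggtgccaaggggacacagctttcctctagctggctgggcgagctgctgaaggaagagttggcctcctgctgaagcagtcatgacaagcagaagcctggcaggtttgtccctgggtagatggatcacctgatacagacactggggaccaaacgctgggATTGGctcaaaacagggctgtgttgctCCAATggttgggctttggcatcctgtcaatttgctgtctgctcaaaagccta
In *Fasn* a run of capitals holds CCAAT on one strand and, overlapping it, CCAAT on the other. Over windows of 300 bases, which add the first 50 bases of the transcript, CCAAT was found in 7 of the 10 members (*Acly*, *Acss2*, *Slc25a1*, *Acacb*, *Thrsp*, *Fasn* and *Me1*). It was in 7 of their 11 windows and in 37.4% of all 32851 windows. GGGCGG, the box bound by Sp1, was found in 5 members (*Acly*, *Acss2*, *Slc25a1*, *Mid1ip1* and *Me1*), in 5 of the 11 windows and in 35.7% of all windows. *Me1* alone has more than 1 window, with CCAAT in that at chr9:86687228-86687527 and GGGCGG in the other. The full element TCACNCCAC, which contains the core, was in no member and in 1.24% of all windows, the core was in *Slc25a1* and 6.24% of windows, and CACGTG was in *Slc25a1* and 7.15% of windows. A match describes letters and is not a binding site, and a missing match says only that the letters are not in this window.

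**Figure D1:**
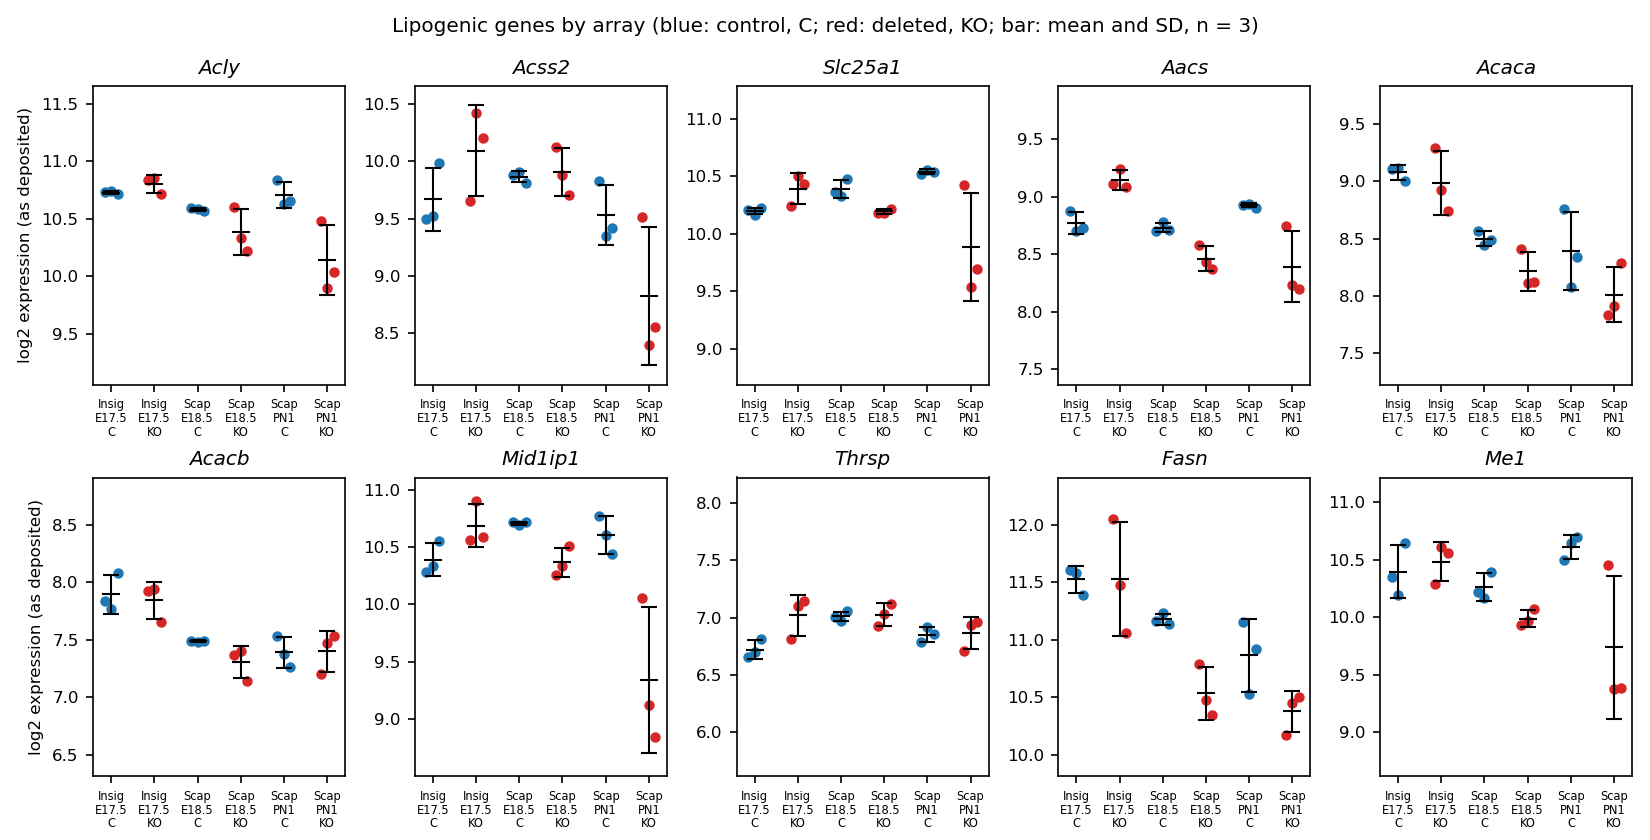
Log2 expression of the 10 genes in each array, with 1 probe set per gene; points are arrays (blue control, red deleted), and bars the mean and SD of 3 arrays. Panels have their own scale with the same span, and in the last column of *Acss2*, *Slc25a1*, *Mid1ip1* and *Me1* one PN1 deleted lung (KO16) sits near the controls while KO17 and KO18 sit far below.

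No member passed the test in any of the 6 comparisons (limma, adjusted p under 0.05 over all probe sets). At E18.5, *Scap* deletion gave 0 of 13 called probe sets, where 0.00877% of the 22800 tested were called, and 2 members (*Fasn* and the second *Acaca* probe set) had an unadjusted p under 0.05, where 9.24% of all probe sets tested did. At PN1 it gave 0 of 13, against a background of 0.00877%, and 9 member probe sets, both of *Me1* among them, had an unadjusted p under 0.05. All 9 were lower, and 32.3% of all probe sets tested had such a p at that age. The unmoderated test of the methods also called 0 members at each age, with 2 and 8 at an unadjusted p under 0.05. A p that misses the threshold does not show that the levels were equal.

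The members lay mostly below control all the same. At E18.5, 11 of 13 probe sets had a negative difference, where 58.3% of all probe sets tested did. The median of the 13 was -0.26 (log2) against -0.04 over all probe sets tested. In 9 of the 13 every deleted array lay below every control array, as in 21% of all probe sets. At PN1, 10 of 13 were negative, where 57.9% of all probe sets tested were. The median of the 13 was -0.53 against -0.06, and 7 were fully below control, as in 11% of all probe sets. Without KO17 and KO18 the PN1 median was -0.18, and without KO16 it was -0.71. For the mean of both ages, 0 member probe sets were called (background 0.0482%), and the median was -0.38 against -0.04. An unadjusted p under 0.05 was found in 9 of them, both of *Acaca* and both of *Me1* included, and in 20.8% of all probe sets. *Fasn* had the smallest adjusted p of the members in that comparison, at -0.57 ± 0.12 (SE; adjusted p = 0.0833 from limma), followed by *Mid1ip1* at -0.80 ± 0.17 (adjusted p = 0.0868).

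**Figure D2:**
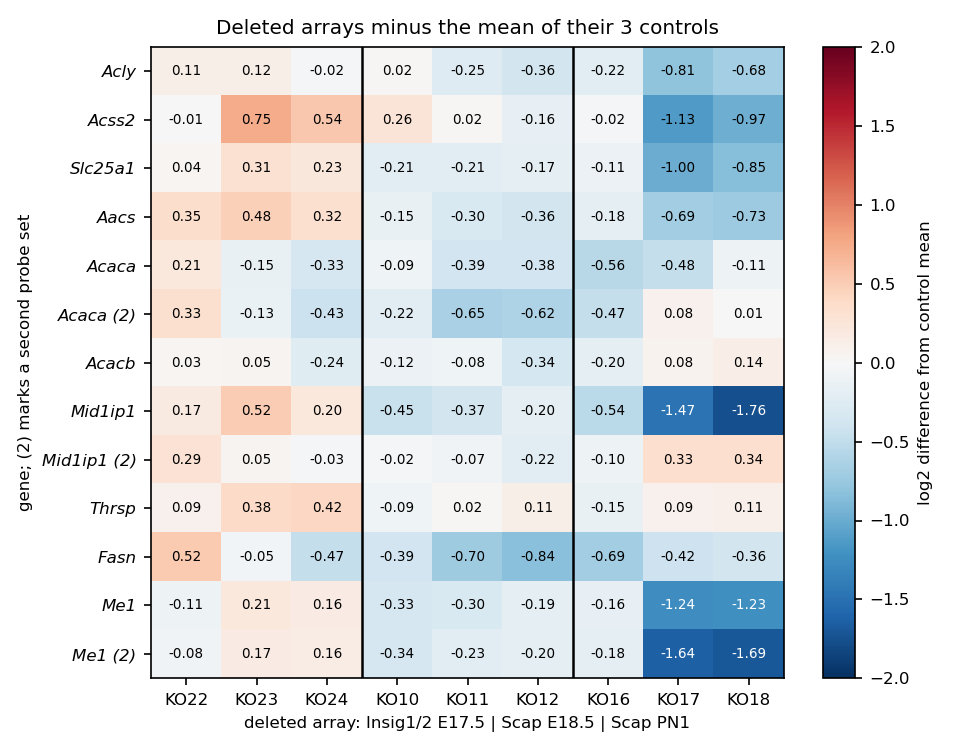
Log2 difference of each deleted array from the mean of its 3 control arrays, by gene (rows) and array (columns; *Insig1/2* at E17.5, *Scap* at E18.5 and *Scap* at PN1, separated by lines). KO17 and KO18 carry the most negative values, down to -1.76 for *Mid1ip1*. *Fasn* is negative in all 6 *Scap*-deleted arrays, from -0.36 to -0.84. So are *Slc25a1*, *Aacs*, *Me1* and the first *Acaca* and *Mid1ip1* probe sets, with smaller differences in some arrays.

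*Fasn* (probe set 10393970), the synthase itself, read 11.16, 11.23 and 11.13 in the E18.5 controls and 10.79, 10.47 and 10.34 in the *Scap*-deleted lungs. Every deleted lung was lower than every control, with KO10 nearest to them. The difference was -0.64 ± 0.16 (log2, SE), or 0.641 of the control level (adjusted p = 0.511 from limma). At PN1, controls read 11.16, 10.53 and 10.92 and deleted lungs 10.17, 10.45 and 10.50. All 3 deleted lungs were below the lowest control, but by little in KO17 and KO18, and the controls themselves spread widely. The difference was -0.49 ± 0.16 (adjusted p = 0.0967), it was -0.69 with KO16 as the one deleted lung and -0.39 without KO16, and the effect did not differ detectably between ages (0.15 ± 0.23, adjusted p = 0.65). All 6 deleted lungs lay below every control of their age.

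*Acaca*, the cytosolic carboxylase that commits acetyl-CoA to fatty acids, has 2 probe sets. In the first (10379820), E18.5 controls read 8.57, 8.44 and 8.49 and deleted lungs 8.41, 8.11 and 8.12. Deleted lungs lay below controls without overlap, KO10 only just, for a difference of -0.29 ± 0.17 (adjusted p = 0.591). At PN1 controls read 8.76, 8.08 and 8.34 and deleted lungs 7.84, 7.91 and 8.29. The groups overlapped, since the control C14 lay below KO18, and the difference was -0.38 ± 0.17 (adjusted p = 0.153), or -0.56 with KO16 as the one deleted lung. The second probe set (10394538) gave -0.50 ± 0.19 at E18.5 (adjusted p = 0.531), without overlap, and -0.13 ± 0.19 at PN1, with overlap, or -0.47 with KO16 as the one deleted lung. Probe sets of this array are numbered roughly by chromosome, and 16 of 17 neighbours of the second probe set lie on chromosome 12 while *Acaca* lies on chromosome 11, so it may read a copy elsewhere, which was not tested.

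*Acaca* and *Fasn* went together across the lungs. With each array centred on its control mean, *Fasn* correlated with the first *Acaca* probe set at r = 0.88 over 18 arrays and 0.91 over the 16 without KO17 and KO18, and with the second at 0.88 and 0.97. These are descriptions over arrays that share control means and hybridization. *Acacb*, the mitochondrial carboxylase whose malonyl-CoA restrains fatty acid oxidation, read 7.49, 7.48 and 7.49 in the E18.5 controls and 7.37, 7.41 and 7.14 in deleted lungs. The deleted lungs were lower without overlap, by -0.18 ± 0.11 (adjusted p = 0.596). At PN1 the groups overlapped (controls 7.27 to 7.54, deleted 7.20 to 7.53) and the difference was 0.01 ± 0.11.

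*Mid1ip1* and *Thrsp* encode related proteins, and that of *Mid1ip1* helps acetyl-CoA carboxylase to polymerize into its active form. *Mid1ip1* (10598638) read 10.71, 10.69 and 10.72 in the E18.5 controls and 10.26, 10.33 and 10.51 in deleted lungs. The 3 deleted lungs were lower without overlap, and the controls lay within a narrow band, for a difference of -0.34 ± 0.25 (adjusted p = 0.644). At PN1 the controls read 10.77, 10.60 and 10.44, KO16 read 10.06, and KO17 and KO18 read 9.13 and 8.84. All deleted lungs were below control, KO17 and KO18 by far the most, and the difference of -1.26 ± 0.25 was the largest of any member at that age (adjusted p = 0.0875). It was -0.54 for KO16 alone and -1.62 without KO16 (adjusted p = 1.25e-06 from limma), a setting in which 61.9% of all probe sets were called. Its PN1 effect minus that at E18.5 was -0.92 ± 0.35 (adjusted p = 0.265), the one member of 13 with an unadjusted p under 0.05 in that comparison, where 18.3% of all probe sets had one. None of the 13 was called there, against a background of 0%.

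A second *Mid1ip1* probe set (10603620), to which no RefSeq mRNA is assigned, read between 7.45 and 8.01 in all arrays and gave -0.11 ± 0.12 at E18.5 and 0.19 ± 0.12 at PN1. Its correlation with the first was -0.49 over 18 arrays and 0.40 over the 16 without KO17 and KO18. *Thrsp*, known as Spot 14, read 7.01, 6.97 and 7.05 in the E18.5 controls and 6.92, 7.03 and 7.12 in deleted lungs. The groups overlapped fully, and the difference was 0.01 ± 0.09 (adjusted p = 0.962). At PN1 they overlapped again, at 6.78 to 6.92 in controls and 6.71 to 6.96 in deleted lungs (0.02 ± 0.09, adjusted p = 0.913).

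Among the suppliers of acetyl-CoA, *Slc25a1* (10438262), the citrate carrier, read 10.36, 10.33 and 10.48 in the E18.5 controls and 10.18, 10.18 and 10.22 in *Scap*-deleted lungs. All deleted lungs were lower, in a band narrower than that of the controls, for a difference of -0.20 ± 0.18 (adjusted p = 0.709). At PN1 controls read 10.52, 10.56 and 10.54, KO16 read 10.43, and KO17 and KO18 read 9.54 and 9.69. KO16 was a little under the controls and the other deleted lungs far under them, and the difference was -0.65 ± 0.18 (adjusted p = 0.0901), or -0.11 with KO16 as the one deleted lung.

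*Acly* (10391146), which splits citrate, read 10.59, 10.58 and 10.57 in the E18.5 controls and 10.60, 10.33 and 10.22 in deleted lungs. KO10 was level with the controls and KO11 and KO12 were lower, so the groups overlapped (-0.20 ± 0.15, adjusted p = 0.653). At PN1 controls read 10.84, 10.63 and 10.66 and deleted lungs 10.48, 9.90 and 10.03. All deleted lungs were below control, for a difference of -0.57 ± 0.15, or 0.674 of the control level (adjusted p = 0.0897), and -0.22 with KO16 as the one deleted lung.

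*Acss2* (10477649), the acetate enzyme, behaved differently at E18.5, with 9.88, 9.90 and 9.81 in controls and 10.13, 9.88 and 9.70 in deleted lungs. The groups overlapped, with KO10 above all controls and KO12 below them, and the difference was 0.04 ± 0.25. At PN1 controls read 9.83, 9.35 and 9.42, KO16 read 9.52, and KO17 and KO18 read 8.40 and 8.56. KO16 lay among the controls, so the groups overlapped, and the difference of -0.71 ± 0.25 (adjusted p = 0.106) came to -0.02 with KO16 as the one deleted lung. *Aacs* (10525893), which feeds acetoacetate carbon into lipid, read 8.70, 8.78 and 8.71 in E18.5 controls and 8.58, 8.43 and 8.37 in deleted lungs. The deleted lungs were lower without overlap (-0.27 ± 0.13, adjusted p = 0.553). At PN1 its controls lay close together at 8.93, 8.94 and 8.91 and the deleted lungs at 8.75, 8.23 and 8.19, again without overlap (-0.53 ± 0.13, adjusted p = 0.0897, and -0.18 with KO16 as the one deleted lung).

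*Me1* (10595480), which makes cytosolic NADPH from malate, read 10.22, 10.17 and 10.40 in the E18.5 controls and 9.93, 9.96 and 10.07 in deleted lungs. Deleted lungs were lower without overlap (-0.27 ± 0.24, adjusted p = 0.686). At PN1 controls read 10.50, 10.65 and 10.70, KO16 read 10.46, and KO17 and KO18 read 9.37 and 9.38. KO16 was just under the lowest control and the other deleted lungs far under it, for -0.88 ± 0.24 (adjusted p = 0.0897), or -0.16 with KO16 as the one deleted lung. The second *Me1* probe set (10405753) followed the first (r = 0.99 over 18 arrays) and gave -0.26 ± 0.32 at E18.5 and -1.17 ± 0.32 at PN1 (adjusted p = 0.09), or -0.18 with KO16 as the one deleted lung. Of its numbered neighbours 12 of 15 lie on chromosome 13, while *Me1* lies on chromosome 9, so it too may read a copy elsewhere, which was not tested.

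**Figure D3:**
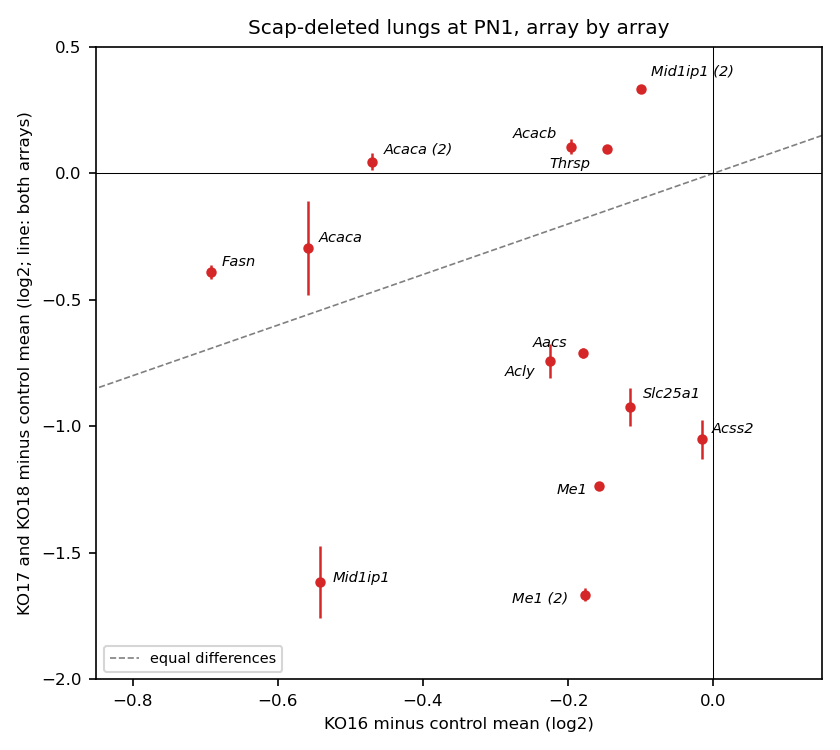
For each probe set at PN1, the log2 difference of KO16 from the control mean (horizontal) against that of KO17 and KO18 (vertical; point, their mean; line, both arrays); the dashed line marks equal differences. *Fasn* and *Acaca* lie above the dashed line, with KO16 the lower, and *Mid1ip1*, *Me1*, *Acss2*, *Slc25a1*, *Acly* and *Aacs* lie below it, with KO17 and KO18 the lower.

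At PN1 the members differed in which deleted lung was lowest. *Fasn* and both *Acaca* probe sets were lowest in KO16. *Fasn* in KO17 and KO18 and the first *Acaca* probe set in KO18 were nearer to control. The second *Acaca* probe set was at -0.47 in KO16 and just above the control mean in KO17 and KO18 (0.0794 and 0.0138). *Acly*, *Acss2*, *Slc25a1*, *Aacs*, *Me1* and the first *Mid1ip1* probe set were lowest in KO17 and KO18. *Acacb* (-0.20, 0.0768 and 0.14 in KO16, KO17 and KO18), *Thrsp* (-0.15, 0.0864 and 0.11) and the second *Mid1ip1* probe set (-0.10, 0.33 and 0.34) lay below the control mean in KO16 and above it in KO17 and KO18. In the 6 genes lowest in KO17 and KO18, KO16 lay from -0.02 to -0.54 from the control mean, and KO17 and KO18 from -0.68 to -1.76. With KO16 left out, 8 of 13 member probe sets passed an adjusted p of 0.05, and so did 61.9% of all probe sets. Of these 8, the second *Mid1ip1* probe set was higher, at 0.33, and the others were lower, both *Me1* probe sets among them. With KO17 and KO18 left out, 0 members and 0% of all probe sets passed, with KO16 as the one deleted lung and the spread taken from the other groups. Quantile normalization, which gives all arrays the same spread, kept the first *Mid1ip1* probe set at -1.20, *Me1* at -0.78 and *Slc25a1* at -0.54, and *Fasn* at -0.36 (adjusted p = 0.183). The part of the arrays that stand apart in these differences was not tested.

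From E18.5 to PN1 in the *Scap* controls, 0 of 13 members were called where 2.58% of all probe sets were, and the median was -0.09 against 0.01. *Slc25a1*, *Acly*, *Aacs* and both *Me1* probe sets were higher at PN1 without overlap, 5 of 13 where 17.6% of all probe sets were. The largest of these differences were 0.35 ± 0.24 and 0.34 ± 0.32 for the *Me1* probe sets and 0.19 ± 0.13 for *Aacs*. *Thrsp* lay lower at PN1 without overlap (-0.16 ± 0.09), and *Fasn* by -0.31 ± 0.16 (adjusted p = 0.496) with overlap, since the PN1 control C13 reached 11.16.

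*Insig1/2* deletion at E17.5 gave 0 of 13 called members, against a background of 0% of 22775 probe sets tested. At an unadjusted p under 0.05 there were 3 members (*Aacs*, *Mid1ip1* and *Thrsp*, all higher), and 4.1% of all probe sets, with a member median of 0.09 against 0.01. In 4 of 13 probe sets every deleted lung lay above every control, as in 5.83% of all. The unmoderated test called 0 members, with 1 at an unadjusted p under 0.05.

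*Aacs* read 8.88, 8.70 and 8.73 in the *Insig* controls and 9.11, 9.24 and 9.08 in the deleted lungs. All deleted lungs were higher, by 0.38 ± 0.08 (log2, SE), or 1.301 times the control level (adjusted p = 0.758 from limma). *Thrsp* read 6.65, 6.70 and 6.81 in controls and 6.81, 7.10 and 7.14 in deleted lungs. The highest control and the lowest deleted lung nearly met, and the difference was 0.30 ± 0.11. *Mid1ip1* read 10.28, 10.33 and 10.55 in controls and 10.56, 10.90 and 10.59 in deleted lungs, higher by 0.30 ± 0.12, with C21 and KO22 almost level. *Slc25a1* read 10.21, 10.17 and 10.22 against 10.24, 10.51 and 10.43, higher by 0.19 ± 0.08, with KO22 just above the controls.

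The remaining members overlapped between *Insig* genotypes. *Fasn* read 11.61, 11.58 and 11.39 in controls and 12.05, 11.48 and 11.06 in deleted lungs. KO22 was the highest and KO24 the lowest of the 6 lungs, for a difference of 0.0011 ± 0.24. *Acaca* had the same order in the deleted lungs, 9.29, 8.93 and 8.74 against 9.11, 9.12 and 9.001 in controls (-0.09 ± 0.14). *Acss2* ran the other way, with 9.50, 9.52 and 9.99 in controls and 9.65, 10.42 and 10.20 in deleted lungs (0.42 ± 0.23). C19, C20 and KO22 were the low lungs of *Acss2*, and C21, KO23 and KO24 the high ones. *Acly* read 10.73, 10.74 and 10.71 against 10.84, 10.85 and 10.71 (0.07 ± 0.07), and *Me1* differed by 0.09 ± 0.14. *Acacb* differed by -0.05 ± 0.12, with 7.77 to 8.08 in controls and 7.66 to 7.95 in deleted lungs.

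**Figure D4:**
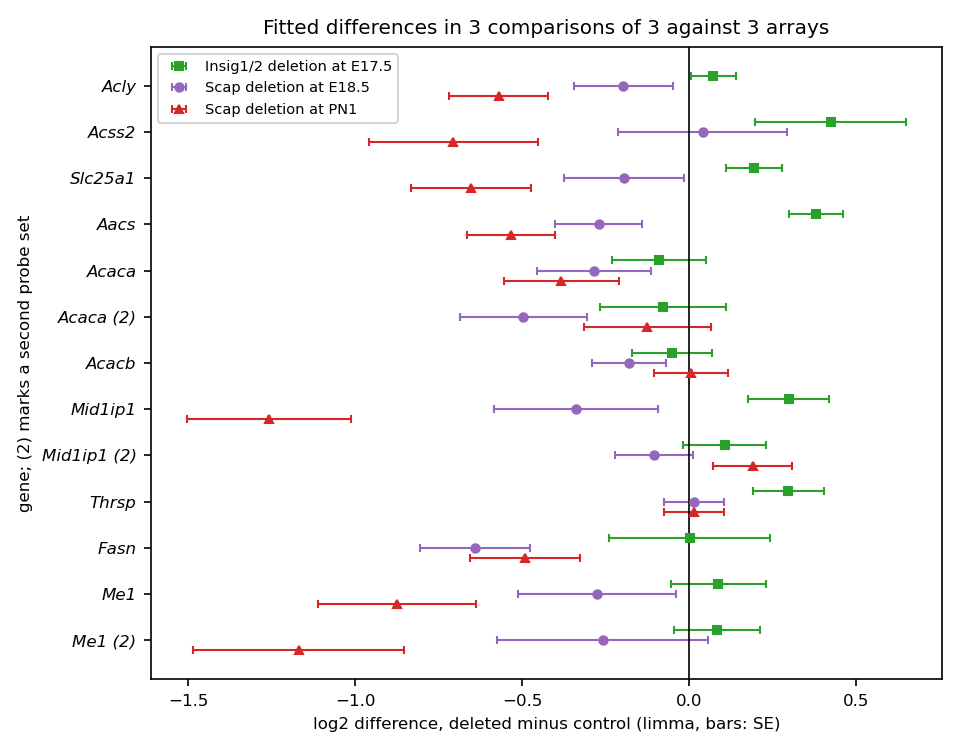
Fitted log2 difference of deleted minus control lungs, with its SE, for each probe set in the 3 comparisons (green squares *Insig1/2* at E17.5, purple circles *Scap* at E18.5, red triangles *Scap* at PN1; 3 against 3 arrays). *Aacs*, *Slc25a1* and *Mid1ip1* lie right of 0 after *Insig1/2* deletion and left of 0 after *Scap* deletion, *Fasn* lies at 0 after *Insig1/2* deletion, and no point passed the adjusted test.

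The effects of the models were compared in 1 fit of all 18 arrays, a comparison added after the data were seen. Taking the *Scap* effect at E18.5 minus the *Insig1/2* effect at E17.5, 0 of 13 members were called, where 0.0308% of 22717 probe sets were. *Aacs* differed by -0.65 ± 0.17 (adjusted p = 0.75), *Fasn* by -0.64 ± 0.29 and *Mid1ip1* by -0.64 ± 0.31 (both adjusted p = 0.912). Age and line differ along with the deleted gene and cannot be told apart in it.

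Over the 6 groups, levels of *Fasn* were highest at E17.5 in the *Insig* line (11.53 in both genotypes), then 11.18 in E18.5 controls, 10.87 in PN1 controls, 10.53 in E18.5 deleted and 10.38 in PN1 deleted lungs. In that order the arrays of E17.5 deleted lungs overlapped those of their controls. The step from the E17.5 controls to the E18.5 controls showed no overlap, but KO24, an E17.5 deleted lung at 11.06, lay below every E18.5 control. The E18.5 controls overlapped PN1 controls, these overlapped E18.5 deleted lungs, and the deleted lungs of both ages overlapped each other. *Acacb* was also highest in the E17.5 lungs, without overlap with the *Scap* line, and so was *Acaca* in its second probe set, while in its first the PN1 control C13 (8.76) reached KO24 (8.74). Line and age cannot be told apart here. *Slc25a1* was highest in the PN1 controls (10.54) and *Aacs* in the *Insig1/2*-deleted lungs (9.15), in both cases clear of the group that came next. *Mid1ip1* was lowest in the PN1 deleted lungs (9.34), below and clear of the E18.5 deleted lungs (10.37). *Thrsp* ranged over group means of 6.72 to 7.02.

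Regulators of the pathway lay mostly below control in the *Scap*-deleted lungs. Of the 19 tested, 14 were below control and 5 above at E18.5, and 17 below and 2 above at PN1. Of all probe sets tested, 58.3% and 57.9% were below control at these ages. At E18.5, 9 were below without overlap, as in 21% of all probe sets. Another 3 were above without overlap, as in 3302 of the 22800 probe sets tested. *Srebf1*, which encodes the SREBP-1 factors, read 9.66, 9.66 and 9.56 in E18.5 controls and 9.18, 8.99 and 8.97 in deleted lungs. It was lower without overlap at E18.5 (-0.58 ± 0.10, adjusted p = 0.327) and at PN1 (-0.30 ± 0.10, adjusted p = 0.095), where KO16, at 8.90, was again the lowest. In the *Insig1/2*-deleted lungs it was 0.34 ± 0.13 above control, with overlap. *Srebf2*, the sterol counterpart, was lower without overlap at both ages (-0.58 ± 0.11 and -0.43 ± 0.11). With KO16 as the one deleted lung the PN1 differences were -0.40 for *Srebf1* and -0.55 for *Srebf2*. *Mlxipl*, which encodes the carbohydrate-responsive factor ChREBP, lay at -0.14 ± 0.08 at E18.5 and 0.0589 ± 0.08 at PN1. *Insig2*, *Usf1* and *Nfyb* were higher without overlap at E18.5, by 0.30 ± 0.15, 0.39 ± 0.18 and 0.24 ± 0.14, with adjusted p of 0.554, 0.547 and 0.584 from limma. At PN1 *Insig2* was at -0.41 ± 0.15, with overlap, and at 0.0061 with KO16 as the one deleted lung. The regulators named above were picked for their role and with their values seen. Of the 21 lipogenic regulators listed, 19 were tested, and *Insig1* alone was called, at -0.72 ± 0.09 over the mean of both ages (adjusted p = 0.0299). The list medians were -0.13 at E18.5 and -0.29 at PN1 (-0.0764 without KO17 and KO18), and -0.0027 after *Insig1/2* deletion, where *Insig1* is the deleted gene.

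Downstream of *Fasn*, *Scd1* and *Scd2*, the stearoyl-CoA desaturases, were the called genes among the 13 tested for elongation and desaturation at PN1. *Scd1* read 11.90, 11.23 and 11.48 in PN1 controls and 8.45, 8.004 and 7.55 in deleted lungs, and fell by 3.54 ± 0.36 (adjusted p = 0.014 from limma). *Scd2* fell by 1.21 ± 0.10 (adjusted p = 0.00473). All 3 deleted lungs lay below the controls for both genes, KO16 the nearest, and both genes also fell over the mean of both ages (adjusted p = 0.00125 each). *Scd2* also fell by 0.61 from E18.5 to PN1 in controls (adjusted p = 0.0133). The other 11 tested genes of the list were not called, and the list medians were -0.13 at E18.5, -0.44 at PN1 (-0.21 without KO17 and KO18) and 0.13 after *Insig1/2* deletion. With KO16 as the one deleted lung *Scd1* was at -3.09 and *Scd2* at -1.08 at PN1, neither past the test (adjusted p = 0.42 and 0.115 from limma), where no probe set passed, while both were still called over the mean of both ages (adjusted p = 0.02 each).

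The lists that surround the pathway gave few calls under *Scap* deletion. None of the 11 tested other sources of NADPH was called by *Scap* deletion at either age, with medians of -0.02 at E18.5 and -0.37 at PN1, and *Aldh1l1*, a folate enzyme, fell by 1.14 ± 0.14 from E18.5 to PN1 in controls (adjusted p = 0.00301). Among 20 tested genes of mitochondrial citrate and acetyl-CoA (medians 0.03 and -0.40) none was called by deletion, and *Pdk1*, a kinase that switches off pyruvate dehydrogenase, and *Acss3*, a mitochondrial acyl-CoA synthetase, fell by 0.76 and 0.92 from E18.5 to PN1 in controls (adjusted p = 0.0347 and 0.00453). Of 13 genes for carboxylase control and use of malonyl-CoA (medians -0.04 and -0.28), *Cpt1a*, the step that malonyl-CoA inhibits, was higher at PN1 than at E18.5 in controls by 0.84 ± 0.11 (adjusted p = 0.00497). Among the 15 fatty acid oxidation genes (medians 0.11 and -0.31) *Acadl*, an acyl-CoA dehydrogenase, was higher at PN1 in controls by 0.42 ± 0.07 (adjusted p = 0.0153). For mitochondrial fatty acid synthesis (9 tested, medians 0.23 and -0.37) and ketone body metabolism (4 tested, medians 0.15 and -0.30) no gene was called, with *Oxsm*, the condensing enzyme of the mitochondrial pathway, at -0.66 ± 0.22 and *Acsf3*, a malonyl-CoA synthetase, at -0.20 ± 0.09, and *Bdh1* and *Oxct1*, enzymes of ketone use, at -0.21 ± 0.10 and -0.32 ± 0.18 at PN1. Without KO17 and KO18, *Oxsm* was at 0.0021, *Acsf3* at -0.0115, *Bdh1* at -0.0168 and *Oxct1* at 0.22, so that their PN1 differences rest on these arrays. In that setting, chosen after the data were seen, the PN1 list medians were -0.0115 for other NADPH sources, 0.0008 for mitochondrial citrate and acetyl-CoA, -0.11 for carboxylase control, 0.13 for fatty acid oxidation, 0.21 for mitochondrial fatty acid synthesis and 0.24 for ketone body metabolism. The median over all probe sets was -0.04 at E18.5 and -0.06 at PN1 (-0.0199 without KO17 and KO18).

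Some lung cell markers also lay below control after *Scap* deletion. The mean log2 over 8 type II cell markers was 12.36 to 12.40 in E18.5 controls and 12.13 to 12.22 in deleted lungs, and at PN1 12.29 to 12.38 against 11.67 to 12.05. All 8 were tested. At E18.5, 5 were below control and 3 above, and at PN1 7 were below and 1 above. Of all probe sets tested, 58.3% and 57.9% were below control at these ages. At each age 5 markers lay below without overlap, as in 21% and 11% of all probe sets. At PN1 1 lay above without overlap, as in 1274 of the 22800 tested. *Lpcat1*, an enzyme of surfactant phospholipid, was called, at -0.51 ± 0.07 over the mean of both ages (adjusted p = 0.0404). Against the mean of their controls, all E18.5 deleted lungs also lay lower for endothelial (-0.26 to -0.0214), adipocyte (-0.11 to -0.0265) and thymus (-0.14 to -0.0577) markers. They lay on both sides of it for type I, general epithelial, fibroblast, erythroid, heart muscle and hepatocyte markers. Measured the same way, PN1 deleted lungs lay from -0.29 to -0.0088 for type I, -0.42 to -0.036 for general epithelial, -0.23 to -0.0788 for fibroblast, -0.21 to 0.0201 for endothelial and -0.59 to -0.40 for erythroid markers. Of the adipocyte markers, whose cells make much fatty acid, *Adipoq*, *Cidea*, *Ucp1* and *Lep* stayed below the filter, and the mean of 9 markers was 6.87 to 6.90 in PN1 controls and 6.82 to 6.84 in deleted lungs. Of the 6 thymus markers, *Rag1*, *Rag2*, *Dntt* and *Cd8b1* also stayed below the filter, and 2 were tested. The thymus mean therefore rests largely on low values. *Alb*, a hepatocyte marker, reached 11.16 in KO11 and 10.30 in C20, and 3 of 6 hepatocyte markers were tested in the *Scap* fit. The mean of 6 heart muscle markers reached 11.69 in C21, where the other *Insig* arrays read 9.22 to 9.78. *Lipe*, a lipase on the adipocyte list, was called higher at PN1 than at E18.5 in controls (0.45 ± 0.10, adjusted p = 0.0491), and *Pdgfra*, a fibroblast receptor, fell by 0.86 ± 0.11 (adjusted p = 0.00474). The part of these cells in the members' differences was not tested.

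The genes whose pattern was most like that of the members were sought among 14848 genes, by correlation with the mean difference of the 10 members from control, 1 probe set per gene. Over all 18 arrays they were *Lpcat3* (r = 0.98), an enzyme that remodels phospholipids, *Csnk1g2* (0.97), *Gnai2* (0.97), *Gltp* (0.97) and *Pigq* (0.96). Over the 16 arrays without KO17 and KO18 they were *Srebf1* (0.97), the fatty acid desaturases *Fads1* (0.97) and *Fads2* (0.96), *Lpcat3* (0.96) and *Igfbp4* (0.96). *Lpcat3* was in both groups of 5. *Fads1*, which introduces double bonds into long-chain fatty acids, read 11.27, 11.26 and 11.38 in E18.5 controls and 10.97, 10.72 and 10.71 in deleted lungs, lower without overlap (-0.50 ± 0.11, adjusted p = 0.511).

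Over 18 arrays *Slc25a1* and *Me1* correlated at 0.97, *Mid1ip1* and *Slc25a1* at 0.96, and *Acly* and *Slc25a1* at 0.91, and over the 16 arrays without KO17 and KO18 the values were 0.83, 0.85 and 0.57. *Fasn* and *Acly* went the other way, from 0.59 over 18 arrays to 0.85 over 16. *Fasn* and *Acss2* stayed near no relation, at 0.18 and 0.03. *Thrsp* had r = -0.11 with *Fasn* over 18 arrays and -0.09 over 16. These values describe arrays that share control means, and carry no test.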

How the data were processed

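The authors measured RNA of whole lung on Affymetrix Mouse Gene 1.0 ST arrays and deposited log2 values per probe set, which they analysed in GeneSpring GX 11.5; how probes were summarized and normalized is not given in the sources used here. The table has 35556 probe sets, from 3.09 to 14.05, of which 21789 have 1 gene symbol, 1621 several and 12146 none. No column belonged to another series. The files give no depth for arrays, so precision rests on how many there are.

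Groups were taken from the sample labels. The filter of the methods was used: a probe set entered a fit when 66% or more of its arrays had it at the 35th percentile or higher. Separate fits with limma 3.58.1 (R 4.3.3) took the 12 *Scap* arrays, with 4 group means, and the 6 *Insig* arrays, with 2; p was adjusted by Benjamini and Hochberg over all probe sets tested, and calls were made at an adjusted p under 0.05. SEs are limma's moderated SEs. The fit was tested on simulated data. The methods' two-way analysis of variance also used *Scap* arrays of E17.5, which were not analysed here, so it was replaced by the 4 group means. The members and the lists around them, drawn from textbook knowledge, were chosen with earlier results of these data known. All 10 members are named with every probe set of 1 symbol. From each other list the text names the genes called in a comparison, or where none was called the 2 with the smallest p at PN1. Marker lists and the list of regulators are exceptions. From the marker lists the text names the genes called and such others as are stated, not the 2 with the smallest p. From the regulators it also names uncalled genes picked for their role and with their values seen. The 5 genes most alike were ranked over 18 and over 16 arrays, each gene with its most highly expressed probe set.

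Alternatives were array weights, gene means, median centring, quantile normalization, no filter or one at the 50th percentile, 1 fit of all arrays, only the 6 arrays of an age, a spread that depends on intensity, the unmoderated test, the threshold of the methods (1.5-fold or more with an adjusted p up to 0.01), and leaving out arrays. Promoter windows of 300 bases and chromosomes of genes came from RefSeq, build GRCm38.p6; the array's own build is not given in the sources used here. Python 3.11.15, pandas 2.3.3 and matplotlib 3.10.9 were used for motifs and plots.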

Additional observations from a re-analysis of the deposited data

Results flagged for a closer look

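The members *Slc25a1*, *Aacs* and *Mid1ip1* lay on opposite sides of control in the models: every *Scap*-deleted lung at E18.5 was below, and every *Insig1/2*-deleted lung at E17.5 above, the mean of its own controls. In 1 fit of all 18 arrays the *Scap* effect minus the *Insig1/2* effect was -0.39 ± 0.22 for *Slc25a1* (adjusted p = 0.924 from limma), -0.65 ± 0.17 for *Aacs* (adjusted p = 0.75) and -0.64 ± 0.31 for *Mid1ip1* (adjusted p = 0.912). None passed the test. In these members every *Scap*-deleted array at E18.5 was also below every control, as in 21% of all probe sets. Every *Insig1/2*-deleted array was above every control, as in 5.83% of all. The share of all probe sets with both was not computed. The *Insig* controls and the *Scap* controls differ in line, age and the lack of *Insig2*, which cannot be told apart from the deleted gene.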

How the results depend on the processing

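No paired analysis was possible because the replicate numbers in the labels are unique to each array and none is shared between groups. The cause of each change below was not tested, except that fewer arrays entered where arrays were left out. Members called were 0 in all 6 comparisons with quantile normalization, median centring, no filter, the filter at the 50th percentile, a trend of the spread, the unmoderated test, gene means, the methods' threshold and, for 1 age, only the 6 arrays of that age. With array weights, which stopped before converging for the *Scap* arrays and gave KO16 a weight of 0.0489, members called were 4 at E18.5, 10 at PN1, 9 over both ages, 10 for the difference of ages, 1 for controls by age and 6 for *Insig1/2*, where 11.2%, 68.1%, 49.7%, 64.4%, 12.5% and 36.7% of all probe sets were called, and the *Insig1/2* median was 0.25. In 1 fit of all 18 arrays they were 6 at PN1 (13.2% of all) and 4 over both ages (3.31%). Without KO17 and KO18 the medians were -0.18 at PN1, -0.22 over both ages and -0.0146 for the difference of ages, and 2 members were called for controls by age (11% of all). Median centring moved the median for the difference of ages to -0.44, and the filter at the 50th percentile that for controls by age to -0.0068.

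Leaving out each array in turn, members called ran from 0 to 8 at PN1, 0 to 8 over both ages, 0 to 8 for the difference of ages and 0 to 2 for controls by age, with each highest count without KO16 (1 over both ages without KO10), where 61.9%, 45.7%, 58.4% and 12% of all probe sets were called. Their medians ran from -0.71 (without KO16) to -0.46 at PN1 and from -0.49 to -0.34 over both ages, -0.26 to -0.20 at E18.5, -0.44 to -0.18 for the difference of ages, -0.12 to -0.0209 for controls by age and 0.0474 to 0.20 for *Insig1/2*. In *Insig1/2* and at E18.5, 0 members were called whichever array was left out.

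Of 1562 member values under the alternatives, 67 changed sign, 79 gained a call and 1416 did neither. With array weights *Acss2* was -0.0219 at E18.5, then the second *Acaca* probe set was 0.13 at PN1, then the second *Mid1ip1* probe set was 0.0103 for controls by age, then *Acacb* was 0.095, the second *Mid1ip1* probe set was -0.0235 and *Fasn* was -0.0991 for *Insig1/2*. With quantile normalization *Acacb* was -0.14 and *Thrsp* was -0.19 at PN1, then *Thrsp* was -0.062 over both ages, then *Acacb* was -0.0045 and *Thrsp* was -0.26 for the difference of ages, then *Fasn* was -0.0168 for *Insig1/2*. With median centring *Acacb* was -0.13 and *Thrsp* was -0.12 at PN1, then the second *Mid1ip1* probe set was -0.0049 and *Thrsp* was -0.0326 over both ages, then *Thrsp* was -0.17 and *Fasn* was -0.0221 for the difference of ages. Without KO17 and KO18 *Acacb* was -0.20, the second *Mid1ip1* probe set was -0.10 and *Thrsp* was -0.15 at PN1, then *Acss2* was 0.0121, the second *Mid1ip1* probe set was -0.10 and *Thrsp* was -0.066 over both ages, then *Slc25a1* was 0.0812, *Aacs* was 0.0918, *Acacb* was -0.0146, *Thrsp* was -0.16, *Fasn* was -0.0504, the second *Me1* probe set was 0.0828 and *Me1* was 0.12 for the difference of ages. Leaving out each array in turn, values ran at E18.5 *Acss2* from -0.0713 to 0.14 and *Thrsp* from -0.0348 to 0.0643, at PN1 the second *Acaca* probe set from -0.30 to 0.0466, *Acacb* from -0.0593 to 0.11 and *Thrsp* from -0.0297 to 0.0958, over both ages *Thrsp* from -0.0098 to 0.0547. They ran for the difference of ages *Acaca* from -0.25 to 0.0846, *Thrsp* from -0.049 to 0.082 and *Fasn* from -0.0187 to 0.30, for controls by age *Acaca* from -0.29 to 0.0497 and the second *Mid1ip1* probe set from -0.0406 to 0.0291, for *Insig1/2* *Acaca* from -0.24 to 0.0312, the second *Acaca* probe set from -0.28 to 0.0972, *Acacb* from -0.12 to 0.0427, *Fasn* from -0.26 to 0.24, the second *Me1* probe set from -0.0133 to 0.20 and *Me1* from -0.0141 to 0.21.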
